A study of Mus musculus with 25 samples.

Results

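A set of 9 genes of oligodendrocytes and astrocytes were followed in RNA sequencing of microglia sorted by flow cytometry, to compare how much transcript of these other glia the sorted samples held in each genotype. The 9 were chosen by symbol, out of 43411 gene identifiers in the count table, and each symbol matched 1 identifier. The oligodendrocyte genes are Mbp, Mobp, Mog and Cnp, and the astrocyte genes are Gfap, Aqp4, Slc1a2, Slc1a3 and Aldoc.

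The mice carried a floxed Bin1 gene (strain B6.129S6-Bin1tm2Gcp/J) and, in some groups, a Thy1-Cre transgene (FVB/N-Tg(Thy1-cre)1Vln/J) that is expressed in neurons. All were 3 months old, with 1 library per mouse. WT mice (n = 6, 2 females and 4 males) were Bin1flox/wt without Cre. Het-cKO mice (n = 7, 4 females and 3 males) were Bin1flox/wt with Thy1-Cre. Homo-cKO mice (n = 10, 5 females and 5 males) were Bin1flox/flox with Thy1-Cre. Every mouse, the WT mice included, thus carried at least 1 floxed allele. CD11b+ CD45med cells were sorted from brains without cerebellum and olfactory bulbs, after enzymatic dissociation and a Percoll gradient.

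Oligodendrocytes wrap axons in myelin, a compact stack of membrane that is held together by a small set of abundant proteins such as myelin basic protein, and the messenger RNA of this protein travels into the myelin sheath itself. Astrocytes clear glutamate from synapses, carry water channels on their endfeet and supply neurons with metabolic substrates. Neither cell type carries the surface markers used to sort microglia. In bulk RNA, fewer cells of a type and less RNA per cell cannot be told apart, and neither can whole cells, fragments and free RNA.

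Library totals lay between 10812969 and 16734846 counts (median 13477985), and 1 count was worth 0.0599 to 0.0887 CPM (counts scaled to a common library total, after TMM normalization). The rarest of the 9 genes, Mog and Aqp4, lay at a handful of counts, so their precision is set by this depth. The sorted samples held microglial RNA in large amounts. The 12 microglial genes of a marker list, among them Csf1r, the receptor that microglia need to survive, summed to 57792 to 93446 CPM in a mouse. Bin1 itself lay at 699 ± 88.3 CPM (SD, n = 6) in WT, 692 ± 40.6 CPM (SD, n = 7) in Het-cKO and 481 ± 130.2 CPM (SD, n = 10) in Homo-cKO mice. The Homo-cKO and WT ranges overlapped, with a highest Homo-cKO value of 672.7 CPM and a lowest WT value of 599.7 CPM. Since Cre acts in neurons and the sorted cells were microglia, these levels cannot check the genotype labels. The cause of the lower Homo-cKO mean was not tested. All WT and Het-cKO mice have animal numbers of the form 02xx, whereas those of the Homo-cKO mice are of the form 03xx (6 mice, the lower range) or 04xx (4 mice, the higher range), so that genotype and number range cannot be told apart in comparisons with Homo-cKO mice. Homo-cKO replicates 1, 2, 6 and 7 stood apart by Fos, an immediate-early gene that rises in activated or dissociated cells, with 824 to 1459 CPM against 0.363 to 7.0 CPM in the other Homo-cKO mice.

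The 9 genes differed widely in level. Per kilobase of annotated exon, Slc1a3, the glutamate transporter GLAST, and Cnp, the myelin enzyme 2',3'-cyclic nucleotide phosphodiesterase, were the highest with means over all 23 mice of 30.6 and 29.4 CPM per kb. Slc1a3 was above Cnp in 14 of 23 mice, so these neighbours did not differ beyond their spread. Mbp followed with 5.68 CPM per kb and lay below Cnp and above Aldoc in 23 of 23 mice. Aldoc (aldolase C, the brain form of a glycolytic enzyme) had 1.30 and Mobp (myelin-associated oligodendrocyte basic protein) 0.776 CPM per kb, in that order in 19 of 23 mice. The remaining genes were rare. Gfap, the intermediate filament of astrocytes, had 0.205, Mog (myelin oligodendrocyte glycoprotein, on the outer face of myelin) 0.169, Slc1a2 (the glutamate transporter GLT-1) 0.107 and Aqp4 (the aquaporin of astrocytic endfeet) 0.0377 CPM per kb. Gfap was above Mog in 12 of 23 mice and Mog above Slc1a2 in 15 of 23, so the order among these 3 was not resolved.

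The abundant genes were also the steadiest. Over all 23 mice the coefficient of variation of CPM was 8.41% for Cnp and 10.7% for Slc1a3, 32.1% for Mbp, and between 61.9% (Aldoc) and 127% (Gfap) for the other 6 genes. Counts of Mog ran from 0 to 9 and those of Aqp4 from 0 to 13, with 0 counts of Mog in 3 mice, of Gfap in 4 and of Aqp4 in 9. A count of 0 allows a level of up to 3 counts, which is 0.180 to 0.266 CPM depending on the mouse, and covers counting error only.

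**Figure D1:**
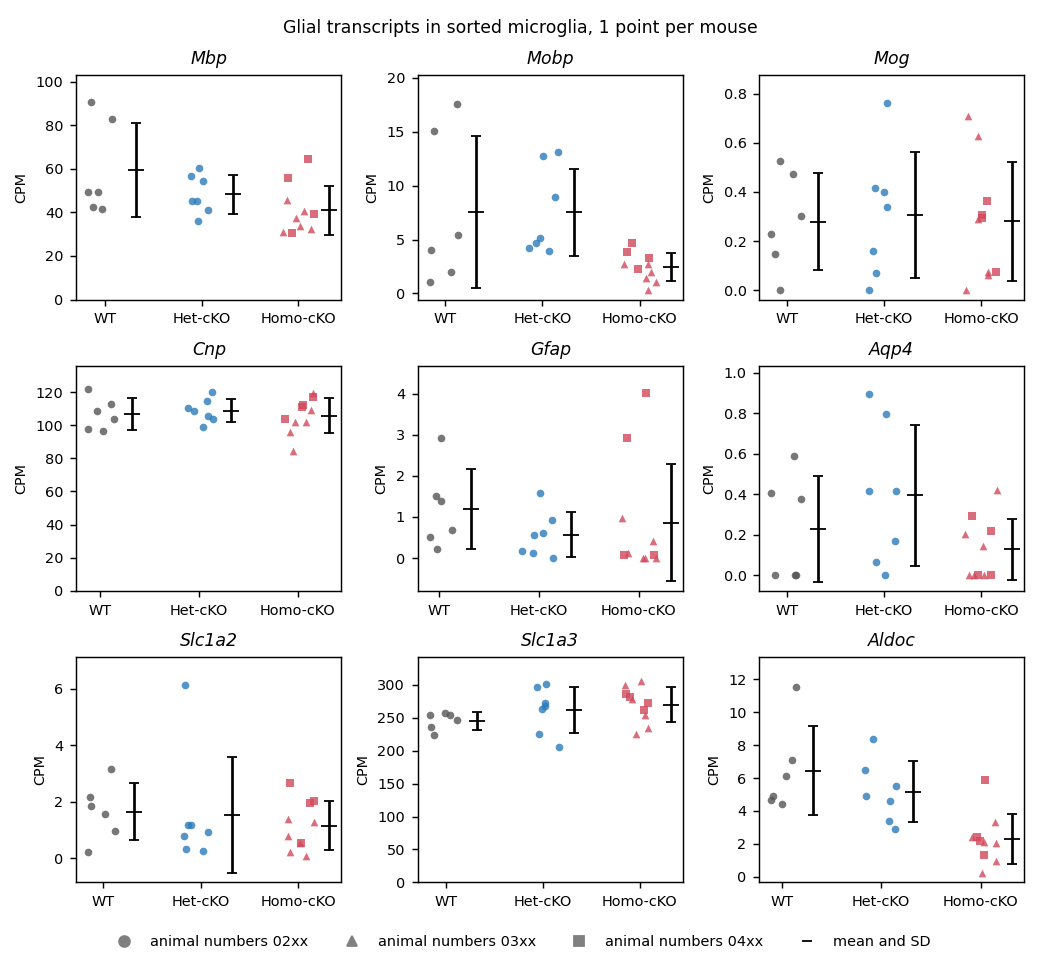
CPM (y axis) of the 9 genes in each mouse, by genotype (x axis), with 1 point per mouse, the shape giving the range of its animal number, and the bars giving the mean and SD of each genotype. Cnp and Slc1a3 sit at similar levels in all genotypes, whereas the Homo-cKO points of Mobp lie at or below 4.64 CPM and those of Aldoc, with 1 exception at 5.86 CPM, at or below 3.30 CPM.

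The comparison of Homo-cKO with WT mice asks whether the glial transcripts in sorted microglia differ when Bin1 is deleted from neurons on both alleles. Mobp and Aldoc were lower in Homo-cKO mice by about 3-fold, Mbp was lower by less than the 1.5-fold threshold, and Cnp and Slc1a3 were at similar levels. Of the 9 genes, 7 passed the filter on low counts, and 2 of these, Mobp and Aldoc, were called by edgeR's quasi-likelihood test (adjusted p below 0.05, and more than 1.5-fold apart). Over all 12908 genes tested, 3.4% were called in this comparison, and 1.75% were called lower.

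Mobp lies on chromosome 9 of GRCm38 from 120149707 to 120181484, on the plus strand (ENSMUSG00000032517.13), and Aldoc on chromosome 11 from 78322968 to 78327781, also on the plus strand (ENSMUSG00000017390.13). The stretches around their RefSeq starts (build GRCm38.p6, 250 bases before to 50 bases after the start, 5' to 3' on the gene's strand) are shown because these are the called genes, next to those of Cnp and Slc1a3, the abundant genes that were not called. Capitals mark ACAAAG, the core of sites bound by SOX factors, or its reverse complement CTTTGT, and ACGTG, the core of sites bound by hypoxia-inducible factors, or its reverse complement CACGT. Both motifs were searched on both strands and were chosen after the sequences were seen.
Mobp (chr9:120149492-120149791, plus strand): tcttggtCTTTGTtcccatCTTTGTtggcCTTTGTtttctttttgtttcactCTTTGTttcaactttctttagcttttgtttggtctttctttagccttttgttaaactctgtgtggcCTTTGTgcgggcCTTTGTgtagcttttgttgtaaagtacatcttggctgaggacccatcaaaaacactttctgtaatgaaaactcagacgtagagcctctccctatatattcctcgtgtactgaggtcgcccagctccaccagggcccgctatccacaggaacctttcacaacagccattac
Aldoc (chr11:78322823-78323122, plus strand): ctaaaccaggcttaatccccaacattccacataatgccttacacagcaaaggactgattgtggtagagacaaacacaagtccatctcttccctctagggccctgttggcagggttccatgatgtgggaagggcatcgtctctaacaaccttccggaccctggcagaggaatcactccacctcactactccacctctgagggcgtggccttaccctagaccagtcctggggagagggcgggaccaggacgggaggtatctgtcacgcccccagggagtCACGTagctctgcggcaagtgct
Cnp (chr11:100574689-100574988, plus strand): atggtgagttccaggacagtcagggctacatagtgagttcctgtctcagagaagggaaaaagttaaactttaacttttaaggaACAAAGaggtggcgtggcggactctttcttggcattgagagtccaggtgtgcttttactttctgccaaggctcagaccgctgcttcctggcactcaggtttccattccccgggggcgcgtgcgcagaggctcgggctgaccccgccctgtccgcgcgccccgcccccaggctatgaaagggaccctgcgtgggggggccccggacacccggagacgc
Slc1a3 (chr15:8710758-8711057, minus strand): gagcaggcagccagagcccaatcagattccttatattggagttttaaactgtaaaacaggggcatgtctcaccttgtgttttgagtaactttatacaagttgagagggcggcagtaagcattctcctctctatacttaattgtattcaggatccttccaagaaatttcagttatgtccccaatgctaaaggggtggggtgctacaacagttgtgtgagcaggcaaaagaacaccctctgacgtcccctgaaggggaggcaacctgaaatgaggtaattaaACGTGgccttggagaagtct

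The Mobp stretch held ACAAAG 6 times, and it was the only 1 of 32851 RefSeq promoter stretches of this length with at least 6, while 18.7% held it at least once. The Aldoc and Slc1a3 stretches shown each held ACGTG once, while 19.6% of all stretches held it at least once. Another Aldoc stretch, which begins at chr11:78323948 and is not shown, held neither motif. The Cnp stretch held ACAAAG once. A match is a description of these letters and not evidence of a bound site. Sequences were matched for 7 of the 9 genes, and those of Mbp and Aqp4 were not used here.

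Among the myelin genes, Mobp ranged from 1.06 to 17.6 CPM in WT mice (median 4.72), from 3.98 to 13.1 CPM in Het-cKO mice (median 5.11) and from 0.300 to 4.64 CPM in Homo-cKO mice (median 2.51). Every Homo-cKO mouse lay below the median of the WT mice, yet only 2 of 10 lay below all WT mice, since WT replicates 1 and 6 were themselves low at 2.03 and 1.06 CPM. WT replicates 2 and 7 were the highest of all mice at 17.6 and 15.1 CPM. The fitted log2 fold change was -1.69 (SE 0.48, adjusted p = 0.022 from edgeR). It was -0.44 (adjusted p = 0.65) with WT replicates 2 and 7 left out together, and leaving out either alone ended the call as well (adjusted p up to 0.14), so the call rested on these mice. They were picked for their high myelin transcripts, a choice that by itself makes the difference smaller. The 4 lowest Homo-cKO values, 0.300, 1.02, 1.43 and 1.95 CPM, were those of replicates 6, 7, 1 and 2, the mice with high Fos, and without these mice the log2 fold change was -1.25 (adjusted p = 0.14 from edgeR).

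Mbp, the main structural protein of compact myelin on its cytoplasmic face, lies on chromosome 18 from 82475146 to 82585637 (ENSMUSG00000041607.14), 50 Mb from Bin1 on the same chromosome. It ranged from 41.5 to 90.8 CPM in WT mice (median 49.3), from 35.9 to 60.5 CPM in Het-cKO mice (median 45.4) and from 30.3 to 64.4 CPM in Homo-cKO mice (median 38.2). Of the Homo-cKO mice, 7 of 10 lay below all WT mice, and the groups overlapped through replicates 4, 5 and 8, at 55.9, 64.4 and 45.6 CPM. The highest values were again those of WT replicates 7 and 2. The log2 fold change was -0.56 (SE 0.18, adjusted p = 0.040 from edgeR), a 1.47-fold difference that passed the adjusted p alone, as 12.7% of all genes did. With single mice left out it passed in 13 of 23 fits (adjusted p up to 0.16) and not with limma-voom (adjusted p = 0.055) or the 2 genotypes alone (adjusted p = 0.058 from edgeR). It was -0.19 (adjusted p = 0.55) without WT replicates 2 and 7.

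Cnp lies on chromosome 11 from 100574904 to 100591729 (ENSMUSG00000006782.14) and shares 154 exon bases, 4.23% of its exons, with Dnajc7 on the opposite strand. It was at 96.5 to 121.6 CPM in WT (median 106.2), 99.2 to 120.2 CPM in Het-cKO (median 108.4) and 84.4 to 119.3 CPM in Homo-cKO mice (median 106.5). The ranges overlapped almost fully. The log2 fold change of Homo-cKO against WT was 0.00 (SE 0.07, adjusted p = 0.99 from edgeR), and this estimate is the most precise among the 9 genes.

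Mog, on chromosome 17 from 37010743 to 37023398 on the minus strand (ENSMUSG00000076439.10), was too rare for the filter. It lay between 0 and 0.525 CPM in WT, 0 and 0.760 CPM in Het-cKO and 0 and 0.710 CPM in Homo-cKO mice, with medians of 0.264, 0.341 and 0.292 CPM. Most of these values lie near the level that a count of 0 allows, and a difference was not detectable at this depth (Homo-cKO against WT, p = 0.99 in a two-sided exact permutation test of 8008 splits).

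Among the astrocyte genes, Aldoc showed the clearest difference. It ranged from 4.41 to 11.6 CPM in WT mice (median 5.49), from 2.90 to 8.37 CPM in Het-cKO mice (median 4.88) and from 0.218 to 5.86 CPM in Homo-cKO mice (median 2.16). In 9 of 10 Homo-cKO mice it was below every WT mouse, the exception being replicate 4, and 8 of 10 lay below every WT and Het-cKO mouse. The log2 fold change was -1.61 (SE 0.37, adjusted p = 0.0062 from edgeR). It was called in all 23 fits that left out 1 mouse each, and without the 4 mice with high Fos it was -1.22 and still called (adjusted p = 0.031). Without WT replicates 2 and 7 it was -1.30 and no longer passed (adjusted p = 0.056). Aldoa, the ubiquitous aldolase, was at 370 ± 20.6 CPM (SD, n = 6) in WT and 391 ± 25.8 CPM (SD, n = 10) in Homo-cKO mice, with a log2 fold change of 0.08 (adjusted p = 0.40 from edgeR).

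The glutamate transporters did not pass the test. Slc1a3, on chromosome 15 from 8634124 to 8710764 on the minus strand (ENSMUSG00000005360.12), ranged from 223.5 to 258 CPM in WT (median 250.1), from 205 to 302 CPM in Het-cKO (median 268) and from 225 to 306 CPM in Homo-cKO mice (median 275). Although 7 of 10 Homo-cKO mice lay above all WT mice, the log2 fold change was 0.12 (SE 0.08, adjusted p = 0.32 from edgeR). Slc1a2, on chromosome 2 from 102658659 to 102790784 (ENSMUSG00000005089.13), shares 189 exon bases with Gm13872 on the opposite strand and was far rarer. It ranged from 0.228 to 3.15 CPM in WT (median 1.71), from 0.256 to 6.13 CPM in Het-cKO (median 0.917) and from 0.0727 to 2.66 CPM in Homo-cKO mice (median 1.04). The log2 fold change was -0.60 (SE 0.61, adjusted p = 0.57 from edgeR), so that a 1.5-fold difference in either direction lay within 2 SEs. Of the other Slc1 family genes, Slc1a4, a neutral amino acid transporter, was at 18.2 ± 6.16 CPM (SD, n = 6) in WT and 14.9 ± 6.58 CPM (SD, n = 10) in Homo-cKO mice, and Slc1a5, a glutamine transporter, at 4.05 ± 1.44 and 6.92 ± 3.00 CPM, and neither passed the test.

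Gfap, on chromosome 11 from 102887336 to 102900912 on the minus strand (ENSMUSG00000020932.12), ranged from 0.225 to 2.91 CPM in WT (median 1.04), from 0 to 1.58 CPM in Het-cKO (median 0.557) and from 0 to 4.02 CPM in Homo-cKO mice (median 0.104). It was scattered in Homo-cKO mice, where replicates 4 and 9 had 2.93 and 4.02 CPM, above all other mice, and 6 of 10 mice lay below all WT mice. The log2 fold change was -0.46 (SE 0.92, adjusted p = 0.80 from edgeR). Aqp4, on chromosome 18 from 15389496 to 15410982 on the minus strand (ENSMUSG00000024411.9), 17 Mb from Bin1, fell under the filter. It ranged from 0 to 0.588 CPM in WT, from 0 to 0.893 CPM in Het-cKO and from 0 to 0.419 CPM in Homo-cKO mice, and was at 0 counts in 3 of 6, 1 of 7 and 5 of 10 mice. Its levels in Homo-cKO and WT mice were not distinguishable (p = 0.35 in the exact permutation test, two-sided, of 8008 splits).

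**Figure D2:**
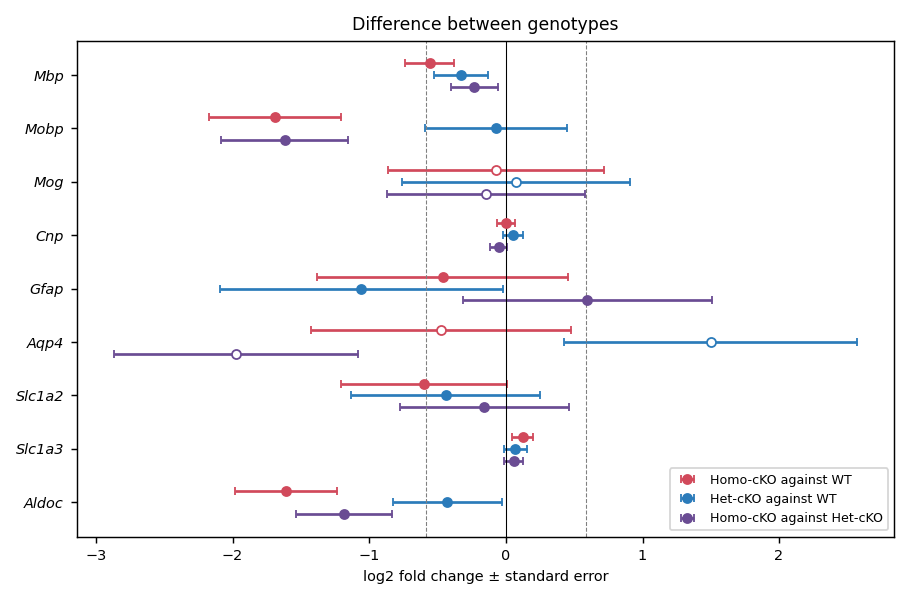
Log2 fold change (x axis, point) with its standard error (bar) for each of the 9 genes in the 3 comparisons between genotypes, from edgeR's quasi-likelihood fit, with open points for Mog and Aqp4, which were fitted without the filter on low counts, and dashed lines at the 1.5-fold threshold. Mobp and Aldoc lie beyond the threshold in both comparisons with Homo-cKO mice, at -1.69 and -1.61 against WT, and Cnp and Slc1a3 lie close to 0 with narrow bars.

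The comparison of Het-cKO with WT mice asks whether Cre, with Bin1 deleted on 1 allele, goes with a difference. None of the 9 genes was called, and 0% of the 12908 genes tested were called by edgeR, 0 by DESeq2 and 0 by limma-voom, although 998 genes (7.73%) had an unadjusted p below 0.05. The log2 fold changes of the tested genes were 0.05 for Cnp, 0.07 for Slc1a3, -0.07 for Mobp, -0.33 for Mbp, -0.43 for Aldoc, -0.44 for Slc1a2 and -1.06 for Gfap, with SEs from 0.07 for Cnp to 1.04 for Gfap. The estimate for Mobp had an SE of 0.52, so a 1.5-fold difference in either direction lay within 2 SEs. For the rare genes, two-sided exact permutation tests over 1716 splits gave p = 0.84 for Mog and p = 0.35 for Aqp4.

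Homo-cKO and Het-cKO mice both carried Thy1-Cre and differed in the second floxed allele. This comparison shares its Homo-cKO mice with that against WT and is not independent of it. The same 2 of the 9 genes, Mobp and Aldoc, were called lower, where 6.62% of all genes were called and 4.3% were called lower. For Mobp, 9 of 10 Homo-cKO mice lay below all Het-cKO mice, and the log2 fold change was -1.62 (SE 0.46, adjusted p = 0.014 from edgeR). It was -1.32 without Het-cKO replicate 5 (adjusted p = 0.053) and -1.08 with the higher number range alone (adjusted p = 0.24), both from edgeR and neither called. For Aldoc, 8 of 10 lay below, and the log2 fold change was -1.18 (SE 0.35, adjusted p = 0.017 from edgeR). Without the 4 mice with high Fos neither passed (Mobp -1.18, adjusted p = 0.10, and Aldoc -0.84, adjusted p = 0.084, from edgeR). Mbp differed by -0.23 (SE 0.17, adjusted p = 0.35 from edgeR). Aqp4 averaged 0.128 ± 0.152 CPM (SD, n = 10) in Homo-cKO against 0.394 ± 0.348 CPM (SD, n = 7) in Het-cKO mice (p = 0.043 in the exact permutation test, two-sided, of 19448 splits, not adjusted for the 6 such tests), and in the fit without the filter its adjusted p was 0.16.

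Within the Homo-cKO mice, the 2 ranges of animal numbers were compared in the same kind of fit. No member passed between the lower and the higher range, where 0.356% of all genes were called. Each of the 7 tested genes had a lower estimate in the lower range, with log2 differences from -0.05 for Slc1a3 to -2.92 for Gfap (adjusted p = 0.31 from edgeR). Against WT, the 6 mice of the lower range (where 3.66% of all genes were called) gave log2 fold changes of -2.22 for Mobp (adjusted p = 0.011) and -1.90 for Aldoc (adjusted p = 0.0054), and the 4 mice of the higher range (2.54% called) gave -1.15 for Mobp (adjusted p = 0.28) and -1.25 for Aldoc (adjusted p = 0.12), all from edgeR. Both ranges thus lay on the same side of WT, but the higher range alone passed the test for neither gene. The high-Fos replicates 1, 2, 6 and 7 all belong to the lower range.

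Male and female mice were compared over all genotypes together, through the sex term of the main fit, and not within each genotype. No member was called between the sexes, where 0.0697% of all genes were called, and the largest estimate was that of Slc1a2, at -0.76 (SE 0.53, adjusted p = 0.87 from edgeR) in males against females. A difference in the effect of genotype between the sexes passed for none of the 7 tested genes, nor for any of the 12908 genes in edgeR. For Aldoc, the log2 fold change of Homo-cKO against WT was -2.06 (SE 0.49) in males and -1.01 (SE 0.57) in females, and the difference of -1.05 had an SE of 0.77 (adjusted p = 0.99 from edgeR).

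The genes were next compared mouse by mouse, as correlations of log2 CPM over the 23 mice, which share library and depth with each other. Mbp and Mobp varied together (Pearson r = 0.74, and 0.74 for deviations from the genotype means), as did Mobp and Aldoc (0.67, and 0.51 within genotypes) and Mbp and Aldoc (0.64, and 0.49). The pair of Mobp and Mbp had r = 0.93 in WT, 0.83 in Het-cKO and 0.48 in Homo-cKO mice. Aldoc did not follow them in every genotype, with r = 0.79, -0.25 and 0.67 with Mobp and 0.90, 0.08 and 0.52 with Mbp in WT, Het-cKO and Homo-cKO mice. Without the 2 mice farthest from the median of Mbp, the pair of Mbp and Mobp had r = 0.63, and Mbp and Aldoc 0.55. Gfap and Slc1a2 followed Mobp more loosely, with r = 0.56 and 0.50.

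Cnp and Slc1a3 did not follow the others. Cnp had r = 0.24 with Mbp and 0.16 with Mobp, genes of the same myelin sheath. Slc1a3 had r = -0.34 with Mbp, -0.39 with Aldoc and 0.10 with Slc1a2. Mog and Aqp4, at a few counts, showed only weak correlations with Mbp and Aldoc, which at such counts is no finding.

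**Figure D3:**
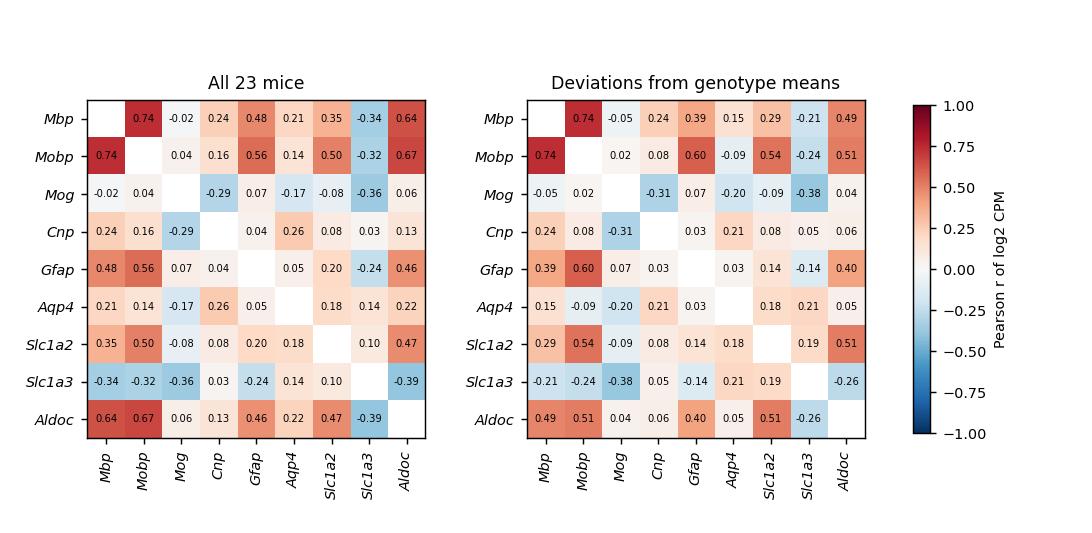
Pearson correlation of log2 CPM between each pair of the 9 genes, over all 23 mice on the left and for deviations from the genotype means on the right, with the colour running from -1 (blue) to 1 (red). The pairs among Mbp, Mobp and Aldoc have r of 0.64 to 0.74 over all mice and 0.49 to 0.74 on the right, whereas Cnp and Slc1a3 are near 0 or below with most genes.

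**Figure D4:**
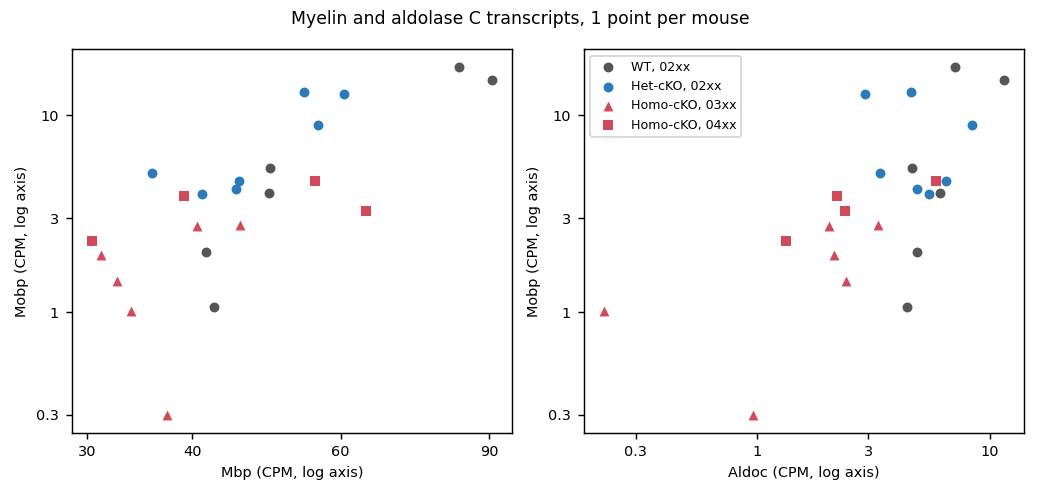
Mobp (y axes, CPM, log scale) against Mbp (left) and Aldoc (right, both CPM, log scale), with 1 point per mouse, coloured by genotype and shaped by the range of the animal number. WT replicates 2 and 7 stand at the upper right with 17.6 and 15.1 CPM of Mobp, and the lowest Mobp value, 0.300 CPM, is that of a Homo-cKO mouse of the lower number range (triangles), whose range overlaps that of the higher (squares).

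Among the genes passing the filter, the pattern most like Mbp was that of Cpe, carboxypeptidase E of the secretory pathway (r = 0.85 over 23 mice), followed by Nnat and Kif5a, a neuronal kinesin (0.81 each). Cpe was also the most like Mobp (0.84), before Tigd5 and D630030B08Rik (0.80 each). Aldoc was most like Gpm6b, a neuronal and glial membrane glycoprotein (0.86), Phtf1os (0.84) and Snrpn (0.83). Cnp was most like Klhl25 and Naip2 (0.73 each) and Mmp14 (0.72), and Slc1a3 most like Prdm15 (0.82), Iqgap1 and Rac3 (0.72 each). Slc1a2 was nearest to Bcan, a proteoglycan of the brain matrix, and Adat2 (0.68 each) and Perp (0.67), and Gfap to A630052C17Rik (0.73), Hsd17b7 (0.69) and Slc7a6 (0.66). The rare Mog and Aqp4 reached at most 0.68, with 4930555G01Rik and with Wdfy4 and Dynlt1c.

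Wider lists of oligodendrocyte and astrocyte genes were then described by counts. Of 26 oligodendrocyte and myelin genes, 13 passed the filter, and in Homo-cKO against WT 4 of these were called lower and 0 higher, where 1.75% of all genes were called lower. The median log2 fold change of the 13 was -0.75, against 0.012 over all genes. With the 9 genes above left out, 3 of 10 were called lower and the median was -0.87. The called genes besides Mobp were Car2 (carbonic anhydrase 2), at 3.58 ± 1.96 CPM in WT (SD, n = 6) and 1.48 ± 0.846 CPM in Homo-cKO mice (SD, n = 10), Plekhb1, from 3.78 ± 1.77 to 0.804 ± 0.458 CPM, and Sept4, a septin, from 4.46 ± 0.929 to 2.62 ± 0.723 CPM. Most of the RNA in this list came from Trf, transferrin, at 2340 ± 304 CPM (SD, n = 6) in WT and 1857 ± 301 CPM (SD, n = 10) in Homo-cKO mice, which passed the adjusted p but not the fold threshold and shares 63.5% of its exon bases with Gm20425 on the same strand.

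An abundant myelin gene that was not called was Mag, the myelin-associated glycoprotein, chosen after its values were seen. It was at 33.9 ± 3.09 CPM (SD, n = 6) in WT, 33.5 ± 1.96 CPM (SD, n = 7) in Het-cKO and 32.3 ± 5.01 CPM (SD, n = 10) in Homo-cKO mice, with a log2 fold change of -0.06 (SE 0.09, adjusted p = 0.74 from edgeR). Against Het-cKO mice 7 of the 13 were called lower, where 4.3% of all genes were, among them Ermn (ermin, of the myelin cytoskeleton) and Enpp2 (autotaxin, also made by choroid plexus), and in Het-cKO against WT none was. In that comparison with Het-cKO mice both tested choroid plexus genes, Ttr (log2 fold change -3.66, adjusted p = 0.0014 from edgeR) and Kl (-4.21, adjusted p = 0.0020 from edgeR), and 5 of 9 neuron genes were called lower as well, and their part in the result was not tested. Of 11 genes of oligodendrocyte precursors 1, Bcas1, passed the filter and it was not called, and the list summed to 0.266 to 4.50 CPM in a mouse.

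Of 44 astrocyte genes, 20 passed the filter. In Homo-cKO against WT 4 of these were called lower and 0 higher, where 1.75% of all genes were called lower. The median log2 fold change of the 20 was -0.59, against 0.012 over all genes. With the 9 genes left out, 3 of 16 were called lower and the median was -0.72. Besides Aldoc these included Mt3, a metallothionein of brain, at 1.5 ± 0.544 CPM in WT (SD, n = 6) and 0.259 ± 0.210 CPM in Homo-cKO mice (SD, n = 10), and Cpe, which went from 7.32 ± 5.92 to 2.90 ± 1.82 CPM. Mt1, another metallothionein, went the other way, from 33.6 ± 4.73 to 49.6 ± 7.09 CPM (log2 fold change 0.54, adjusted p = 0.0026 from edgeR, below the fold threshold against WT). Plpp3, next to Slc1a3 and Mt1 in abundance, was not called. The astrocyte list summed to 317 to 409 CPM in Homo-cKO and 331 to 392 CPM in WT mice because Slc1a3 made up most of it. Gja1, the astrocytic gap junction protein, and Sox9 were near 0 in every group, with means of 0.192 to 0.409 CPM and 0.140 to 0.557 CPM. Glul and Gpr37l1 were listed at exactly 0 in all mice. Whether such a 0 reflects absent RNA or the quantification of these genes was not tested. Against Het-cKO mice 4 of the 20 were called lower and 2 higher (Mt1 and F3, the tissue factor), where 4.3% of all genes were called lower and 2.32% higher, and in Het-cKO against WT none was called.

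**Figure D5:**
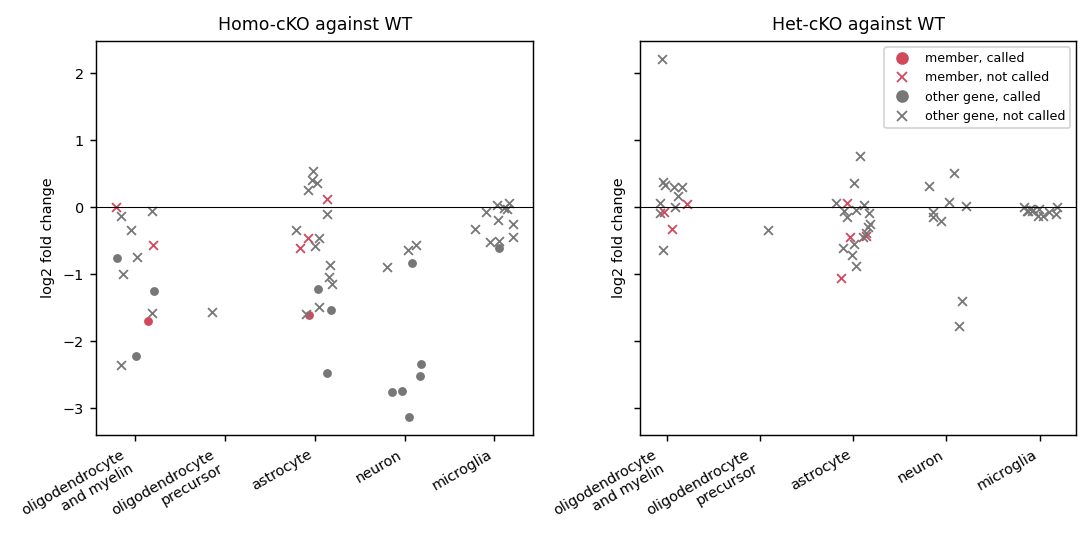
Log2 fold change (y axis) of each tested gene in 5 marker lists (x axis), in Homo-cKO against WT on the left and Het-cKO against WT on the right, with the 9 genes in red, other genes in grey, and dots for genes called by edgeR against crosses for genes that were not. On the left the neuron genes have a median of -2.34, the oligodendrocyte genes of -0.75 and the microglia genes of -0.22, and on the right no gene is called.

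Markers of other cell types were counted in the same comparisons. Of 15 neuron genes 9 were tested and 6 were called lower in Homo-cKO against WT mice (median -2.34), where 1.75% of all genes were called lower, among them Snap25, a synaptic fusion protein, at 11.3 ± 5.43 CPM in WT (SD, n = 6) and 1.94 ± 0.996 CPM in Homo-cKO mice (SD, n = 10), and Syp, a synaptic vesicle protein, which went from 5.53 ± 1.35 to 3.29 ± 1.34 CPM. The summed level of the neuron list was 8.15 to 15.9 CPM in Homo-cKO and 18.6 to 51.5 CPM in the other mice, with no overlap. Among single genes, the CPM ranges of 1.81% did not overlap between Homo-cKO and WT mice, and of 2.32% between Homo-cKO and Het-cKO mice. These shares are for single genes and not for sums, which vary less, so they are not a like measure. Among the WT mice, replicate 2, with the most Mobp, had the lowest neuron sum (18.6 CPM). Replicate 1, with 2.03 CPM of Mobp, had the highest (51.5 CPM). WT replicate 7 was high in both, with 15.1 CPM of Mobp and a neuron sum of 43.2 CPM. Replicates 4, 5 and 6 had 5.40, 4.05 and 1.06 CPM of Mobp and neuron sums of 21.7, 28.2 and 28.8 CPM. The relation of Mobp to the neuron sum was not tested. Pdgfrb, the 1 tested pericyte gene of 5, was called lower too, at 7.26 ± 1.97 CPM (SD, n = 6) in WT and 2.29 ± 3.36 CPM (SD, n = 10) in Homo-cKO mice. Its Homo-cKO values were uneven, with a median of 0.546 CPM and a highest value of 10.5 CPM. The other pericyte genes fell under the filter, with WT means of at most 0.0451 CPM, so this list rested on Pdgfrb alone. Of 10 endothelial genes 3 were tested and 0 called. The sums of this list, most of it Bsg, did not overlap either, with 485 to 580 CPM in Homo-cKO and 583 to 756 CPM in the other mice. Cldn5 and Tek were listed at exactly 0 in all mice, and whether this reflects absent RNA or their quantification was not tested. The choroid plexus and ependymal list, mostly Ttr, ran from 0.0887 to 187 CPM over all mice, with 0 of 2 tested genes called against WT and 2 of 2 called lower against Het-cKO mice. Of the 12 microglia genes 1, Itgam, was called lower against WT, and their sum was 60819 ± 3585 CPM (SD, n = 10) in Homo-cKO against 76594 ± 10056 CPM (SD, n = 6) in WT mice. The part of neuronal or other non-microglial RNA in the differences of Mobp and Aldoc was not tested.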

How the data were processed

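Reads were single-end. The authors aligned them to mm10 (OSA4, gene model Ensembl R84) and deposited RSEM expected counts, normalized for neither depth nor length. Handling of strand and of reads with several matches is not given in the sources used here. Of 25 labelled mice, 23 had a column. Expected counts were rounded. Identifiers were matched to symbols without their version (42929 matched, 482 did not), and coordinates are from GENCODE vM21.

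Genes were filtered with filterByExpr (12908 kept), normalized by TMM and tested with edgeR 4.0.16 (R 4.3.3), quasi-likelihood, with genotype and sex in 1 fit and Benjamini-Hochberg adjustment over all genes. Correlations used log2 CPM with a prior count of 2. Scripts were tested on simulated data. DESeq2 1.42.0 and limma-voom 3.58.1, other scalings and filters, and leaving out mice were alternatives. No 2 replicates agreed within sampling noise (chi-square per gene 7.60 to 52.0 over 81 pairs).

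The 9 genes, the marker lists and the thresholds were chosen with earlier results of these data known. In the lists, genes were named when called (at most 6 per glial list) or when among the 3 (other lists, 2) highest in mean CPM, with the relatives and, for each member, the 3 genes most alike. Some genes that this rule names are not reported here.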

Additional observations from a re-analysis of the deposited data

Results flagged for a closer look

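Slc1a2 in Het-cKO replicate 1 was at 6.13 CPM, or 74 counts, far from the next of the 7 Het-cKO mice at 1.20 CPM. The gap made up 0.84 of the range of the group, above Dixon's critical value of 0.568. Of 27 such tests (9 genes in 3 genotypes) this was the 1 that stood out, and chance gives about 1 in 20. The other astrocyte genes of this mouse were not all high, with 0.166 CPM of Gfap and 0.414 CPM of Aqp4 but 8.37 CPM of Aldoc, the highest Aldoc value of the Het-cKO mice. Without this mouse the log2 fold change of Slc1a2 in Het-cKO against WT was -1.19, which did not pass the test.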

How the results depend on the processing

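In Homo-cKO against WT mice, 2 of the 9 genes were called, and 439 of all genes tested. The count was 1 with limma-voom (Aldoc, with Mobp at -1.36, adjusted p = 0.10), where 498 of all genes were called. It was 0 with the 4 mice of the higher number range alone (327 of all genes called). Leaving out WT replicates 2 and 7, chosen after seeing the data, gave 0 (330 called). Leaving out Homo-cKO replicates 1, 2, 6 and 7, also chosen then, gave 1 (321 called). The count was 3, with Mbp added, with the lower range alone (Mbp -0.69, adjusted p = 0.019 from edgeR, 475 called). It was also 3 with no fold change threshold (1645 called). In Homo-cKO against Het-cKO mice it was 2 (854 called). It was 0 there with the higher range alone (542 called) or without the 4 Homo-cKO mice (505 called). With single mice left out, the counts ran from 1 to 3 and from 1 to 2. Aldoc was called in 23 of 23 such fits in both comparisons, and Mobp in 21 and 22 (not without WT replicate 2 or 7, or Het-cKO replicate 5). Het-cKO against WT gave 0 in every setting. DESeq2, the other scalings and filters, no sex term and the 2 genotypes alone kept the call of Mobp and Aldoc. Scaling by library totals alone moved the median of all genes in Homo-cKO against WT to 0.11, with Mobp at -1.59, Aldoc at -1.51, Mbp at -0.46 (adjusted p = 0.077 from edgeR) and Slc1a3 at 0.22 (adjusted p = 0.035 from edgeR, below the fold threshold).

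Reversals of sign touched only differences that were not called. For Cnp in Homo-cKO against WT the log2 fold change was -0.0021 with the CPM filter, -0.0016 with DESeq2, -0.002 with RLE scaling, -0.02 without sex, -0.04 with the lower range alone, and -0.03 to 0.04 with single mice left out. Against Het-cKO it was 0.01 with library totals, 0.03 with the higher range alone and 0.01 without the 4 high-Fos mice. Gfap against WT was 0.61, 0.13 and 0.25 with the higher range alone, without the high-Fos mice and without WT replicates 2 and 7, and against Het-cKO -1.26 with the lower range, -0.61 with limma-voom and -0.39 to 1.12 with single mice left out. Slc1a2 was 0.14 against WT and 0.61 against Het-cKO with the higher range, and against Het-cKO 0.33 without the high-Fos mice and -0.42 to 0.62 with single mice left out. In Het-cKO against WT, Mbp was 0.04 and Mobp 1.18 without WT replicates 2 and 7, and Mobp 0.26 with limma-voom and -0.41 to 0.38 with single mice left out. Of 257 values from settings other than single mice left out, 226 kept direction and side of the threshold, and the cause of the other changes was not tested. No paired analysis was possible because each animal number occurs once. Depth limits Mog, Aqp4 and Gfap, which had a few counts in most mice.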
